A study of Mus musculus with 6 samples.

Results

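The genes described are those of the cellular defence against peroxides and oxidised thiols: the thioredoxin pair Txn1 and Txnrd1, the peroxiredoxins Prdx1 and Prdx4 with their repair enzyme Srxn1, the glutathione synthesis subunits Gclc and Gclm, catalase (Cat), and the inducible enzymes Nqo1 and Hmox1. Every probe set that the array annotation assigns to 1 of these 10 symbols alone was taken. That gave 21 probe sets for 9 genes, of 18193 genes with such a probe set on the array. The 5 probe sets that could report Prdx1 are also assigned to a second symbol, Gm21399, so no value is given for Prdx1. The genes were selected on the measured signal differences between knockdown and control on these same 6 arrays. Their differences are therefore a description, and the array-wide p-values printed for them say only which calls the fit made.

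AtT-20 is a mouse pituitary tumour line of corticotroph type that makes pro-opiomelanocortin. The cells had received 20 nM siRNA again and again through an 8-day course, aimed at Dnmt1 (labelled siDNMT1) or, in the control, at no mouse transcript (labelled siNT). Both groups thus share the repeated transfection. Total RNA went to 1 array per sample, and the procedure was done independently on 3 occasions, called repeats 1 to 3, which gave 3 knockdown and 3 control arrays. Only this 1 line was used, and the RNA is a bulk extract, in which fewer cells carrying a transcript and less transcript per cell cannot be told apart.

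Thioredoxin reductase uses NADPH to keep thioredoxin reduced, and reduced thioredoxin in turn restores peroxiredoxins after they have destroyed a peroxide. Glutathione, made in an ATP-dependent pathway whose first step is glutamate-cysteine ligase, serves peroxidases of its own, while catalase breaks down hydrogen peroxide in peroxisomes without either. Many of these genes are known targets of the transcription factor Nrf2 (gene Nfe2l2), which Keap1 holds back in unstressed cells and which binds antioxidant response elements together with small Maf proteins.

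Of the 10 genes, 8 had promoter windows in RefSeq (GRCm38.p6), 10 windows in all because Txnrd1 has 3 annotated starts; Gclc and Hmox1 were not matched. Each window runs from 250 bases before to 50 bases after the start. The core of the antioxidant response element, TGACNNNGC, was searched on both strands. It was found in 4 member windows, those of the second Txnrd1 start, Gclm, Srxn1 and Prdx1, and in 12.4% of all 32851 windows. The matches are shown because Nrf2 is the known shared regulator of many members; capitals mark the match, with 10 bases on each side, on the strand of the gene. Each of the 4 lies on the opposite strand, so the core is read from right to left as its complement.
Txnrd1, second start, chr10:82859104-82859132, plus strand: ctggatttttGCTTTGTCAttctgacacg
Gclm, chr3:122245413-122245441, plus strand: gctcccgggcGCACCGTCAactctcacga
Srxn1, chr2:152105542-152105570, plus strand: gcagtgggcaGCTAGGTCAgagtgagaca
Prdx1, chr4:116685456-116685484, plus strand: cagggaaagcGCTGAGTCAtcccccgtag
The Prdx1 match also overlaps an AP-1 type motif (TGANTCA), and the other 3 do not. The Txnrd1, Gclm and Prdx1 matches begin 92, 134 and 133 bases before the start, and the Srxn1 match lies after it. A match is a string of letters, not a shown binding site, and the windows of Txn1, Nqo1, Cat and Prdx4 without a match say nothing about elements elsewhere.

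Because Dnmt1 copies methylation at CpG dinucleotides, the 250 bases before the start are printed for Cat and Txnrd1, the genes with the largest differences upwards and downwards, and for Gclm, the member with most CpGs there; CpGs are in capitals. No methylation was measured.
Cat, chr2:103485154-103485403, minus strand: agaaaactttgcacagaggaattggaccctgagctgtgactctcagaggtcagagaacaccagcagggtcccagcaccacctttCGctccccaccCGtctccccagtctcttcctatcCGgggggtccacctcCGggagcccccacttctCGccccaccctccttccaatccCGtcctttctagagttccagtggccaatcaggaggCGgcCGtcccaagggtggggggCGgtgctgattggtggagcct
Txnrd1, second start, chr10:82858956-82859205, plus strand: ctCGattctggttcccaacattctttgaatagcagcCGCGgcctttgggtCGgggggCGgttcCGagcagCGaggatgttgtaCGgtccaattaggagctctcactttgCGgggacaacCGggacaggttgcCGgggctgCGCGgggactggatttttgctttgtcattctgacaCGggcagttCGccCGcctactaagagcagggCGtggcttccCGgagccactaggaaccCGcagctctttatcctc
Gclm, chr3:122245307-122245556, plus strand: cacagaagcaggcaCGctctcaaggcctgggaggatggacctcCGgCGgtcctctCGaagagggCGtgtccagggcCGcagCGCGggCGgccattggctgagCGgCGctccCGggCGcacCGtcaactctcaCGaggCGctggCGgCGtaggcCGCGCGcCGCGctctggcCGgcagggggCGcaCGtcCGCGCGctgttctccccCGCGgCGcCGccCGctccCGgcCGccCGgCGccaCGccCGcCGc
These stretches hold 9 CpGs in Cat, 19 in Txnrd1 and 41 in Gclm. The median over all windows was 6, with 25th and 75th percentiles of 2 and 16. The Cat stretch thus lay inside that range, and those of Txnrd1 and Gclm above it. The first and the third Txnrd1 starts had 2 and 10, Nqo1 had 5, Prdx4 13, Txn1 and Prdx1 15 each, and Srxn1 21.

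All signals below were brought to a common scale by giving each array the same median, and differences are on the log2(scaled signal + 5.29) scale, knockdown minus control, which understates differences of dim probe sets. Deposited array medians ran from 19.8 to 36.3, with both arrays of repeat 2 the brightest. The targeted transcript was lower in the knockdown in 3 of 3 repeats. On the brightest Dnmt1 probe set the scaled signals were 214, 142 and 301 in the knockdown of repeats 1, 2 and 3 and 541, 701 and 619 in the control, so 39.6%, 20.2% and 48.6% of the paired control remained. Its difference was -1.54 (SE 0.24; limma adjusted p = 0.151 without and 0.0211 with the repeat as a block; exact permutation p = 0.1, two-sided, the smallest that 3 arrays against 3 allow). Of 8 corticotroph marker genes 7 passed the filter on dim probe sets, among them Pomc, at 8443 in the knockdown and 9229 in the control, and the lineage factor Tbx19, at 1528 and 1504, while Avpr1b was at 5.53 and 4.06. Of the 7, 4 had differences above 0 and 3 below. The 3 below were Pomc at -0.15 (SE 0.23), Crhr1 at -0.36 (SE 0.20) and Neurod1 at -0.35 (SE 0.20). Crhr1 was lower in 3 of 3 repeats, at 134 in the knockdown and 172 in the control. The summed marker signals of other pituitary lineages were 167 to 287 in the knockdown and 159.7 to 269 in the control, those of fibroblasts 174 to 239 and 152 to 203, and those of macrophages 438 to 538 and 504 to 543, so the ranges of the groups overlapped in each list, and 6 of 10, 5 of 8 and 4 of 6 of these markers passed the filter. Single markers were not all level: the fibroblast marker Pdgfra was dim but higher in 3 of 3 repeats, at 34.3 in the knockdown and 13.1 in the control, a difference of 1.26 (SE 0.47; limma adjusted p = 1.00 without and 0.436 with the block), and 4 of the 5 fibroblast markers that passed were above 0. The part of other cell types in the results was not tested.

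Across the 9 genes the picture was split. Txnrd1 was lower in the knockdown on all 3 of its probe sets, and every tested probe set of the other 8 genes had a fitted difference above 0, the highest being those of Cat. Of the 20 member probe sets that passed the filter, 17 had differences above 0 and 3 below, whereas 40.8% of the 27022 probe sets tested on the array were above 0. The member median was 0.25 and that of all tested probe sets -0.06. These counts follow from how the genes were chosen and were the same, 17 above and 3 below, under the 3 other scalings tried. The positive differences of most genes were carried by repeats 1 and 2 and were smaller or near 0 in repeat 3.

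The limma fit without the repeat number called 0 of the 20, as it called 0 (0%) of all tested probe sets. At an unadjusted p under 0.05 it had 3 higher members, both Cat probe sets and Prdx4 1416166_a_at, and 2 lower, Txnrd1 1421529_a_at and 1424487_x_at. Of all tested probe sets 2.47% were lower at that p. The share higher was not counted, so the 3 higher members cannot be set against the array. With the variance trend left out the fit also called 0. With the repeat as a block it called 1 member, the brightest Txnrd1 probe set, against 0.0851% of the array. The groups did not overlap for 2 members with the knockdown higher and 2 with it lower, where 2.96% and 5.78% of all tested probe sets did so.

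**Figure D1:**
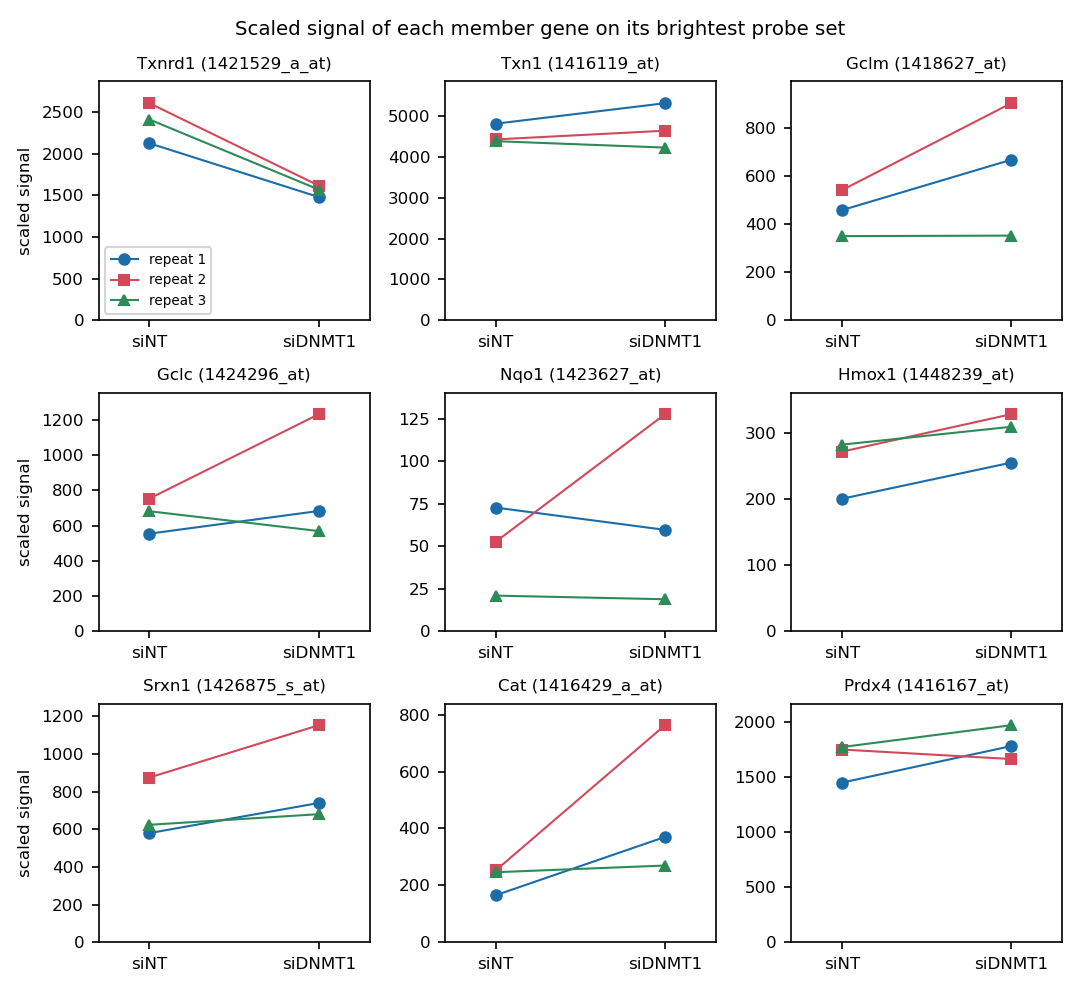
Scaled signal (vertical axis, linear, from 0) of each of the 9 measured genes on its brightest probe set, for the control (siNT) and the knockdown (siDNMT1); each point is 1 array and lines join the 2 arrays of a repeat. Txnrd1 goes down in all 3 repeats, while Cat, Gclm and Gclc go up in repeats 1 and 2, most in repeat 2, and stay nearly level or go down in repeat 3.

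Txnrd1 encodes the cytosolic thioredoxin reductase, a selenoprotein. On its brightest probe set, 1421529_a_at, the knockdown arrays of repeats 1, 2 and 3 had scaled signals of 1480.3, 1618 and 1570.5 and the control arrays 2126, 2607 and 2411. All 3 knockdown values lay below all 3 control values, and they were closer to each other than the controls were. The knockdown held 69.6%, 62.1% and 65.1% of the paired control signal. Means were 1556 ± 69.9 and 2381 ± 242 (SD, n = 3), a difference of -0.61 (SE 0.14, 95% interval -0.90 to -0.31). The limma adjusted p was 0.685 without the block and 0.0491 with it (paired SE 0.096).

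That paired call depended on the settings. The paired adjusted p was 0.0551 with trimmed mean scaling, 0.0504 with quantile scaling, 0.0802 without scaling and 0.795 without the variance trend, while the difference stayed between -0.69 and -0.52 over all 22 alternatives. It remained called in the paired fit without repeat 2 and without repeat 3 (adjusted p = 0.0131 and 0.0418 by limma) and was not called without repeat 1. The paired fits without repeat 1, 2 and 3 called 45, 56 and 261 of all 27022 tested probe sets.

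The other 2 Txnrd1 probe sets were dimmer and pointed the same way. On 1424487_x_at the knockdown had 72.2, 103 and 89.95 and the control 126, 149 and 139.6 in repeats 1 to 3, again without overlap, a difference of -0.62 (SE 0.20). The suffix _x marks probes that can also bind other transcripts. On 1424486_a_at the values were 169, 292 and 163 against 205, 349.5 and 318, which overlapped, with knockdown 2 above control 1; the difference was -0.49 (SE 0.26), and -0.27, -0.26 and -0.94 in repeats 1 to 3. Txnrd1 was thus the 1 measured gene of the 9 that was lower in every repeat on every probe set.

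Txn1, the cytosolic thioredoxin that Txnrd1 reduces, had no such difference on its bright probe set. On 1416119_at the knockdown arrays had 5306, 4634 and 4222 and the control arrays 4806, 4422 and 4378. The ranges overlapped and repeat 3 had the opposite sign, with a difference of 0.05 (SE 0.13, 95% interval -0.23 to 0.34). The deposited signals of this probe set were 3753 to 6639. In that range (mean deposited signals of 4000 to 6000) repeat 2 lay above the other repeats by 0.38 on the log2 scale in the median, against 0.87 at 200 to 500. The figure was 0.61 at 2000 to 4000, and the brightest Txnrd1 probe set had deposited signals of 1187 to 3416. Median knockdown differences were -0.09 at 4000 to 6000 and -0.08 at 200 to 500. Whether bright signals understate the knockdown difference was not tested. The dim Txn1 probe set 1456734_at had 143, 161 and 217 in the knockdown and 143, 129.7 and 137 in the control. There the control arrays were close together and the difference, 0.31 (SE 0.20), came from repeats 2 and 3. It is 1 of 2 member probe sets whose most positive repeat was repeat 3.

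Prdx4 encodes the peroxiredoxin of the endoplasmic reticulum, which can pass oxidising equivalents from peroxide to protein folding enzymes. On 1416166_a_at the knockdown arrays had 1707, 1977 and 2026 and the control arrays 1116, 1786 and 1439.8. The groups overlapped only through control 2, and the difference was 0.42 (SE 0.18, 95% interval 0.03 to 0.81; limma adjusted p = 1.00 without and 0.346 with the block). The values by repeat were 0.61, 0.15 and 0.49. Without repeat 2, the repeat with its smallest difference, the paired fit called it, at 0.55 (limma adjusted p = 0.0238). That fit rests on 2 repeats picked in this way by their size and called 56 of 27022 probe sets. In the paired fits without repeat 1 and without repeat 3 the limma adjusted p was 0.681 and 0.491. The 2 further tested Prdx4 probe sets differed less. The probe set 1416167_at was at 0.13 (SE 0.14) with repeat 2 at -0.07. On 1435731_x_at the 3 controls were almost equal, at 399, 396 and 401, and the knockdown arrays at 403, 413 and 494 lay just above them, a difference of 0.12 (SE 0.16) without overlap. The dimmest, 1431269_at, had signals of 10.1 to 18.2 and did not pass the filter.

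Srxn1 encodes sulfiredoxin, which repairs overoxidised peroxiredoxins, and is a well-known Nrf2 target. Its brightest probe set, 1426875_s_at, had 740.4, 1153 and 681 in the knockdown and 581, 876 and 625 in the control. The groups overlapped because repeat 2 was high in both, but within each repeat the knockdown was higher, by 0.35, 0.40 and 0.12. The fitted difference was 0.29 (SE 0.22; paired SE 0.12). On 1425351_at the values were 468, 727 and 506 against 340.0, 592 and 425, also higher in 3 of 3 repeats, with a difference of 0.33 (SE 0.23; paired SE 0.12). The remaining 2, 1451680_at and 1419942_at, differed by 0.12 (SE 0.17) and 0.22 (SE 0.25) and were below 0 in repeat 3, at -0.15 and -0.21. No Srxn1 probe set was called in either fit.

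Gclc and Gclm encode the catalytic and the modifier subunit of glutamate-cysteine ligase. On the Gclm probe set 1418627_at the knockdown had 669, 904.5 and 353 in repeats 1 to 3 and the control 459, 542 and 351. The 2 arrays of repeat 3 were the lowest of the 6 and nearly equal. The difference was 0.43 (SE 0.30), made of 0.54, 0.73 and 0.01. On the dim Gclm probe set, 1439050_at, the values were 30.7, 43.4 and 11.3 against 22.1, 29.2 and 17.0, so repeats 1 and 2 were again higher and repeat 3 lower, with a difference of 0.16 (SE 0.42).

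Both Gclc probe sets showed the same order of repeats. On 1424296_at the knockdown had 682, 1231 and 569 and the control 554, 753 and 681. Knockdown 2 stood above all other arrays and knockdown 3 below its control, giving 0.30, 0.70 and -0.26 and a fitted 0.25 (SE 0.25). On 1455959_s_at the values were 697, 1122 and 663 against 550.1, 639.7 and 663, giving 0.34, 0.81 and 0.00 and a fitted 0.38 (SE 0.20). Knockdown 3 was level with its control here, at 99.95% of its signal. Neither subunit was called (limma adjusted p = 1.00 for the 4 probe sets without the block, 0.536 to 0.944 with it).

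Catalase had the largest positive difference of the members, and its repeats differed widely in size. On 1416429_a_at the knockdown arrays had 370.3, 763 and 269.9 and the control arrays 166, 253 and 247. The groups did not overlap, but knockdown 3 exceeded control 2 by little. The knockdown held 224%, 302% and 109.5% of the paired control, and the difference was 0.95 (SE 0.32, 95% interval 0.24 to 1.66). On the second Cat probe set, 1416430_at, the values were 268, 564 and 209 against 180.3, 229 and 185, or 149%, 246% and 113% of control, with a difference of 0.67 (SE 0.30). Here knockdown 3 fell within the range of the controls.

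Whether Cat was called depended on repeat 3 and on the block. Over the 3 repeats the limma adjusted p of the brighter probe set was 1.00 without the block and 0.219 with it, and of the dimmer one 1.00 and 0.377. In the paired fit without repeat 3 the differences were 1.36 and 0.92, with limma adjusted p of 6.1e-08 and 0.00335. That fit rests on 2 repeats and called 261 probe sets of 27022. Without the knockdown array of repeat 2 the unpaired differences were 0.53 and 0.26.

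Nqo1 encodes a quinone reductase that is a standard reporter of Nrf2 activity. Its 1 probe set had 59.7, 128 and 18.9 in the knockdown and 72.8, 52.7 and 21.0 in the control. Only repeat 2 was higher in the knockdown, by 1.20, with repeats 1 and 3 at -0.26 and -0.12, and the fitted 0.27 (SE 0.55, 95% interval -0.94 to 1.48) turned to -0.31 without knockdown array 2. Nqo1 also varied most among the members between the repeats themselves. Its 3 controls spanned a factor of 3.46, and their SD on the log2 scale was 0.81, above the 90th percentile of all tested probe sets, 0.65. The members' median control SD was 0.24, against 0.27 for all tested probe sets. Hmox1, which encodes the inducible haem oxygenase, had 255, 329 and 309.7 in the knockdown and 201, 272 and 283 in the control. The groups overlapped, and the difference was above 0 in 3 of 3 repeats, at 0.34, 0.27 and 0.13, with a fitted 0.25 (SE 0.19).

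**Figure D2:**
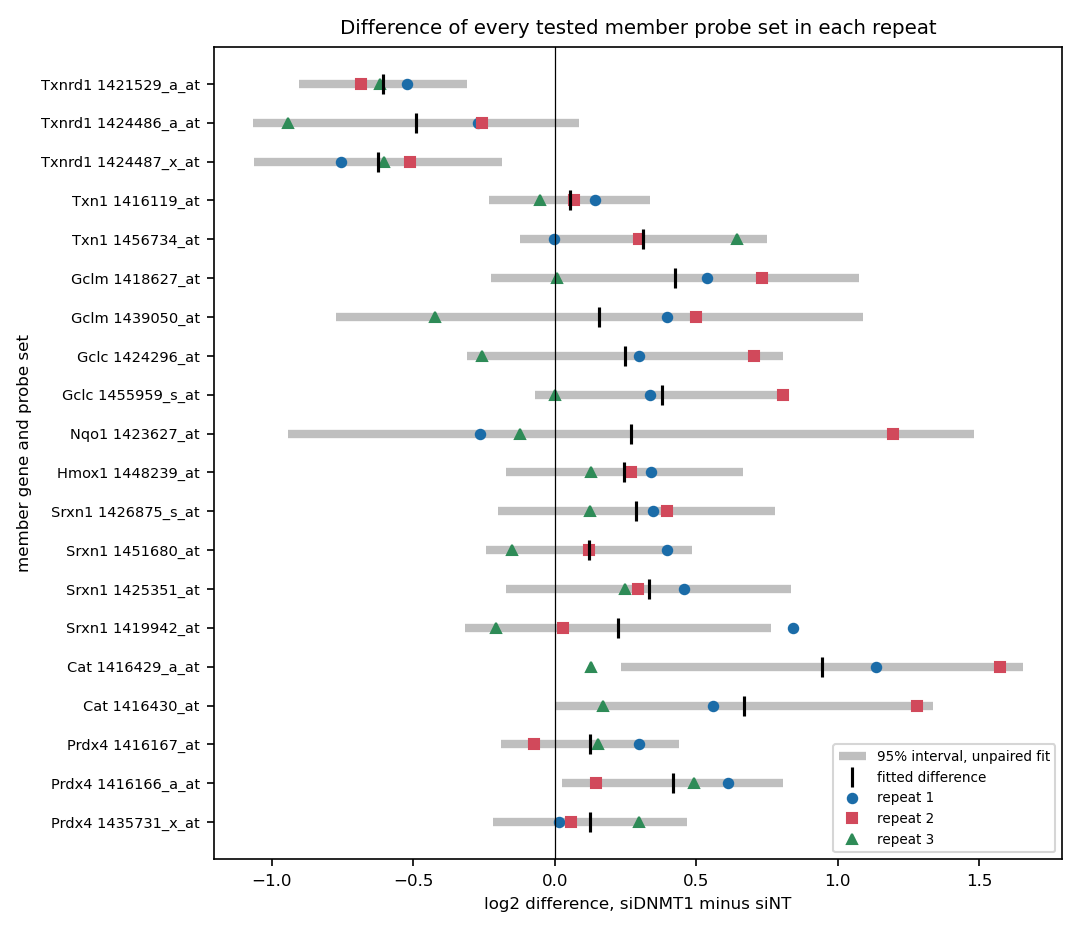
Log2 difference, knockdown minus control, of the 20 tested member probe sets (rows): coloured points are the 3 repeats, the black tick is the fitted difference and the grey bar its 95% interval in the limma fit without the block. The 3 Txnrd1 rows lie left of 0 in every repeat, and in the Cat, Gclm and Gclc rows the point of repeat 3 lies leftmost.

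Set side by side by repeat, the members differed most clearly in repeat 3. The median member difference was 0.34 in repeat 1, 0.28 in repeat 2 and 0.00 in repeat 3, and the median of all tested probe sets was 0.02, -0.11 and -0.07. Of the 20 member probe sets, 5 were below 0 in repeat 1, 4 in repeat 2 and 10 in repeat 3. The most positive repeat was repeat 2 for 10, repeat 1 for 8 and repeat 3 for 2 of them. Dnmt1 transcript remaining was lowest in repeat 2 and highest in repeat 3, as given above, and the Cat, Gclm and Gclc differences had the reverse order of size. Txnrd1 did not have it: on its brightest probe set repeat 3, at -0.62, lay between repeats 1 and 2, at -0.52 and -0.69. No probe set of Txn1, Prdx4, Nqo1 or Hmox1 had it either, and of the Srxn1 probe sets only the brightest did. Repeats 1 to 3 were at 0.61, 0.15 and 0.49 for Prdx4 1416166_a_at and at 0.34, 0.27 and 0.13 for Hmox1. With 3 repeats no relation between the remaining Dnmt1 and a member can be tested. The share of all tested probe sets with the same order of repeats was not counted. Repeat 2 also had the brightest deposited arrays, with medians of 36.3 in the knockdown and 33.2 in the control. All 3 Txnrd1 probe sets were lower in 3 of 3 repeats, as were 19.2% of all tested probe sets, and 8 members were higher in 3 of 3, as were 10.1%.

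The other genes of these pathways were read from 8 lists, with the brightest tested probe set standing for a gene. The lists name 133 genes, of which 111 were tested. None of the 111 was called by limma in either fit. At an unadjusted p under 0.05 without the block 1 was higher and 4 were lower, where 2.47% of all tested probe sets were lower and the share higher was not counted. Of the 111 differences 38 were above 0, with a median of -0.06, equal to that over all tested genes at -0.06. The 1 higher was Ptgr1, and the 4 lower were Gpx3, Sod3, Phyh and Scly.

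Small differences change sign with the scaling, so each count below is followed by its span over the 3 other scalings. Among 9 tested genes of the Nrf2 system 6 were above 0 (6 to 9 elsewhere), with a median of 0.12. That median rested on single arrays: it was -0.01 without control 3 and 0.03 without control 1. Nfe2l2 had 70.3, 108 and 59.9 in the knockdown and 64.6, 93.4 and 56.7 in the control, a difference of 0.13 (SE 0.27) that was above 0 in 3 of 3 repeats. The dimmer Nfe2l2 probe set was at 0.40 (SE 0.38). The Nrf2 repressor gene Keap1 was at 0.21 (SE 0.21) on its brighter probe set and at -0.01 on the other. Bach1, encoding a repressor at the same elements, was at 0.14 (SE 0.22) and, on a dimmer probe set, at 0.27 (SE 0.33). Of 12 other Nrf2 target and NADPH supply genes 6 were above 0 (median 0.05), a count that was 10 to 11 under the other scalings with medians of 0.08 to 0.13. Ptgr1, encoding a prostaglandin reductase, had 1556, 2005 and 1378 in the knockdown and 1132, 1167 and 1273 in the control, without overlap, and a difference of 0.45 (SE 0.16; limma adjusted p = 1.00 without and 0.367 with the block). Repeat 3 was again the smallest for Ptgr1, at 0.11. Ephx1, the microsomal epoxide hydrolase gene, had 610.2, 629 and 619 against 404, 549 and 509, also without overlap, and a difference of 0.35 (SE 0.16).

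The rest of the thioredoxin system had lower values in 10 of 14 tested genes (median -0.11), and in 8 under the other scalings. The mitochondrial thioredoxin gene Txn2 was at -0.16 (SE 0.16) on its brightest probe set and at -0.07 and 0.07 on the others, Txnl1 at -0.21 (SE 0.15) and Msrb2, a methionine sulfoxide reductase gene, at 0.40 (SE 0.20). For comparison with Txnrd1, the mitochondrial Txnrd2 was at -0.01 (SE 0.25) and Txnrd3 at -0.24 (SE 0.24), both named after their values were seen. As Txnrd1 carries selenocysteine, the selenoprotein list was set beside it: 14 of 18 tested genes had lower values, 10 to 12 under the other scalings (median -0.10, and -0.04, -0.03 and -0.07 under trimmed mean, quantile and no scaling). Of all probe sets tested on the array 40.8% were above 0. Sephs2, which makes the selenium donor, was at -0.19 (SE 0.18), Selenot at -0.38 (SE 0.21), and Scly, encoding selenocysteine lyase, at -0.50 (SE 0.18) with 224, 169 and 169 in the knockdown and 243, 292 and 259.7 in the control, without overlap. The largest difference of this list was upwards, in Selenop, 1 of the 4 genes above 0, named after its values were seen. It was at 1.25 (SE 0.78), with 5.81, 142 and 45.7 in the knockdown and 3.83, 16.4 and 26.1 in the control.

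Glutathione synthesis and use had lower values in 12 of 20 tested genes, 11 under the other scalings (median -0.10). Gpx3, the secreted glutathione peroxidase gene, had 775, 713 and 971 in the knockdown and 1058, 1156 and 1519 in the control. These did not overlap, and the difference was -0.59 (SE 0.18; limma adjusted p = 1.00 without and 0.107 with the block). Gss, encoding the enzyme after glutamate-cysteine ligase in glutathione synthesis, was at -0.23 (SE 0.22) on 1 probe set and at 0.04 on another of like brightness. Chac1, which degrades glutathione, was at -0.31 (SE 0.18).

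All 4 superoxide dismutase list genes were below 0 (median -0.21), 3 of them under quantile scaling; with the median over each gene's probe sets in place of the brightest, the list median was -0.09. Sod3, the extracellular form, had 256, 232 and 151 in the knockdown and 369, 479.9 and 274 in the control, which overlapped for no array, and a difference of -0.80 (SE 0.25; limma adjusted p = 1.00 without and 0.110 with the block), with its second probe set at -0.91. The cytosolic Sod1 was at -0.06 (SE 0.17) and -0.13 on its bright probe sets and at 0.26 and 0.25 on the dim ones. Its copper chaperone gene Ccs was at -0.24 (SE 0.18). Of 26 tested peroxisome genes, the organelle that holds catalase, 19 were below 0 (median -0.12), and 15 to 17 under the other scalings. Phyh, of phytanic acid oxidation, was at -0.41 (SE 0.18) and Agps, of ether lipid synthesis, at -0.51 (SE 0.32), with its second probe set at -0.12. Haem and iron genes had 3 of 8 above 0 (median -0.02), and 4 to 6 under the other scalings, where the median turned to 0.00 to 0.04. In this list Alas1, the first enzyme of haem synthesis, was at 0.29 (SE 0.15) and 0.72 on its 2 probe sets, the constitutive haem oxygenase gene Hmox2 at -0.02 (SE 0.16) and the transferrin receptor gene Tfrc at -0.44 (SE 0.25), with a dimmer probe set at -0.08.

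**Figure D3:**
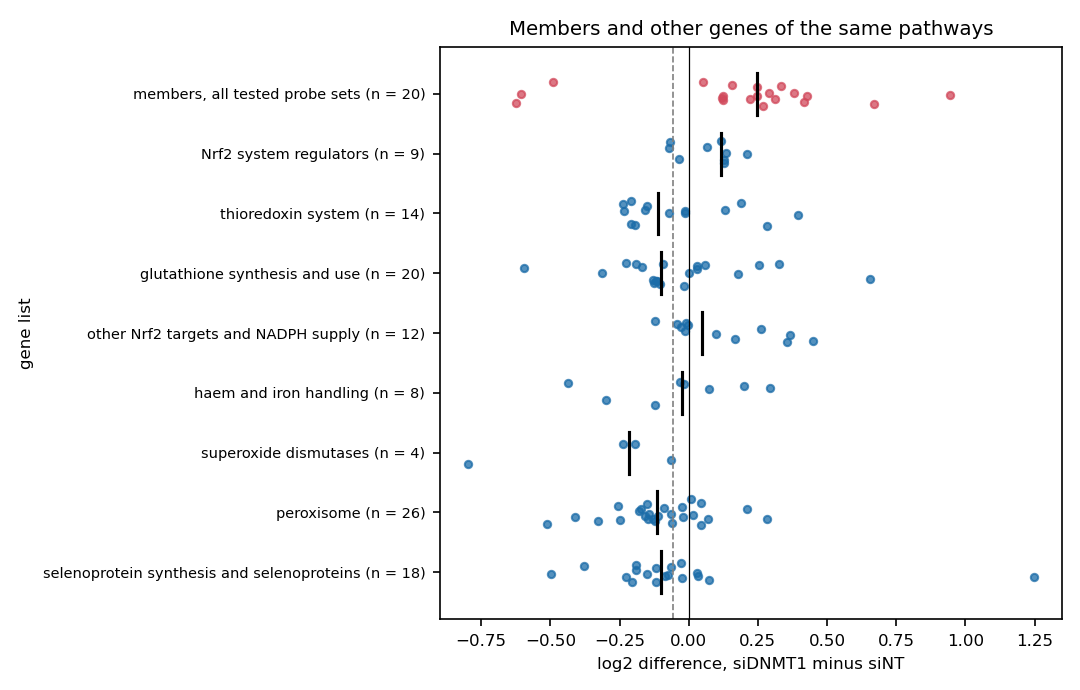
Log2 difference, knockdown minus control, of the 20 tested member probe sets (top row) and of the genes of 8 pathway lists (1 point per gene, rows), with the list median as a black tick and the median of all tested probe sets, -0.06, as a dashed line. The 3 Txnrd1 points lie apart on the left of the top row, and the list medians range from -0.21 for the superoxide dismutases to 0.12 for the Nrf2 system.

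The genes whose signals ran most like those of the brightest Txnrd1 probe set over the 6 arrays were Snap47, Eif4b, Marveld1 and Eno3, with Pearson correlations of log2 values of 0.99, 0.98, 0.98 and 0.98. For the brightest Cat probe set they were Dram2, Smyd3, Wdr70 and Marcks, at 0.99, 0.98, 0.98 and 0.98. These are the highest among the tested probe sets with 1 symbol, which stand for 13477 genes, over 6 points. They are given as a description: a shared order of repeats or direction follows from picking them for likeness on these same arrays. Dram2 had 48.8, 69.6 and 39.6 in the knockdown and 32.4, 37.5 and 35.3 in the control, the same order of repeats as Cat. Eno3, the muscle enolase gene, had 175, 209 and 192 against 413, 599.8 and 402, a difference of -1.25, and so shared the direction of Txnrd1 with a larger size.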

How the data were processed

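The authors deposited linear intensities, 1 for every probe set on every array, made with the Affymetrix operating software GCOS per the submitters' processing notes. The sources used here state neither its version nor its settings. The members and gene lists were chosen with earlier results of these data known.

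Trimmed means (2% at each end) of the arrays were over 10% apart, so arrays were scaled to a common median. Scaling did not make the trimmed means equal: they then ran from 89.9 in control 1 to 107 in control 2. In repeats 2 and 3 the control had the higher one (107 against 97.8 and 98.5 against 92.8), and in repeat 1 the knockdown (91.7 against 89.9). The pseudocount, 5.29, is the 20th percentile of the deposited values. Of 45037 probe sets other than controls, 27022 reached the 40th percentile of mean scaled signal, 16.8, and entered 1 fit with limma 3.58.1 in R 4.3.3 (lmFit, eBayes with a trend, two-sided, Benjamini-Hochberg over all of them, threshold 0.05). The fit was also run on simulated data with the same spread for every probe set and no repeat effect. Such data cannot check the trend or the block. Symbols came from the platform annotation (34945 probe sets with 1 symbol, 932 with several, 9160 with none); a GRCm38.p6 gene table changed 0.

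The repeat numbers pair the arrays: after subtraction of group means, arrays of the same number correlated at 0.173, 0.231 and 0.257, each over 0.1, and the labels tie the numbers to independent procedures. P-values, SEs and intervals without the block rest on the spread of arrays within a group, which includes differences between these procedures. Those with the block rest on the spread of the within-repeat differences. Both also draw on the variance of the other tested probe sets, and 3 arrays a group limit precision. An SE not called paired is from the fit without the block. Alternatives were other scalings, pseudocounts, filters, no trend, the block and left-out arrays.

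Named were all members, Dnmt1, in each list the first gene where tested and the 2 of smallest p, and the 4 genes most like Txnrd1 and Cat. Txnrd2, Txnrd3 and Selenop were named after their values were seen.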

Additional observations from a re-analysis of the deposited data

How the results depend on the processing

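With the repeat number as a block, the count of called members went from 0 to 1 (Txnrd1), and the call of Dnmt1 at -1.54 passed the threshold; no companion gene was called. In the paired fit without repeat 1, 2 or 3, Dnmt1 was called at -1.65, -1.17 and -1.79, and the members called numbered 0, 2 (Txnrd1 and Prdx4) and 3 (Txnrd1 and both Cat probe sets). Those fits called 45, 56 and 261 of all 27022 tested probe sets, against 23 in the paired fit on every repeat. Leaving out single arrays gave -1.79 to -1.26 for Dnmt1, called only without knockdown 3. Signs turned on leaving out arrays or repeats alone, and the cause was not tested. The ranges over single arrays were -0.077 to 0.48 for Gclc 1424296_at, -0.17 to 0.60 for Gclm 1439050_at, -0.31 to 0.92 for Nqo1, -0.041 to 0.37 for Srxn1 1419942_at and -0.035 to 0.13 for Txn1 1416119_at. In the paired fit Gclm 1439050_at was at -0.0099 and Nqo1 at -0.19 without repeat 2, and Srxn1 1419942_at and 1451680_at were at -0.089 and -0.016 without repeat 1. No member turned sign with another scaling, pseudocount, filter or variance trend. Paired fits with other scalings or without the trend were chosen after seeing the data. Under other scalings the haem and iron median alone turned sign, to 0.00 to 0.04. It also turned, to 0.02 to 0.05, without control 2, knockdown 3 or, paired, repeat 3. The Nrf2 system median was -0.01 without control 3 and -0.06 paired without repeat 1, and the glutathione median 0.02 paired without repeat 2. With the median over a gene's probe sets the list medians were -0.09 for the superoxide dismutases, -0.04 for the thioredoxin and for the glutathione list and 0.03 for haem and iron, and the other 4 kept their sign. List medians moved by more than their spread between repeats in 16 of 152 comparisons, 10 of them for the peroxisome list (-0.18 to -0.05). The dim Gclm probe set had no value under the stricter filter.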
